A study of Mus musculus with 4 samples.

Results

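The hypoxia-inducible factor (HIF) system of the newborn lung was described here through 10 genes, namely the 3 HIF alpha subunit genes Hif1a, Epas1 and Hif3a, the prolyl hydroxylase genes Egln1 and Egln3, and the hypoxia targets Bnip3, Bnip3l, Ndrg1, P4ha1 and P4ha2. The genes were taken by symbol from the 48709 genes of the deposited table, and each symbol had 1 row. RNA came from the left lung lobe of 2 RykSL/SL and 2 wild-type mice, all C57BL/6 and 1 day old, and neither genotype was treated. Ryk encodes a WNT receptor with a kinase-like domain, and the labels do not state what the SL allele does to its transcript, which cells it acts in, or the sex and litter of the mice.

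HIF alpha subunits are made continuously and, while oxygen is plentiful, prolyl hydroxylases mark them for destruction through the von Hippel-Lindau ubiquitin ligase. When oxygen falls, the subunits escape, pair with ARNT and bind short DNA elements with the core ACGTG or GCGTG, and so raise genes for glucose use, mitochondrial turnover, collagen modification and vessel growth. Because this control acts on the protein, the transcript of an alpha subunit does not report its activity. In the mouse lung, Epas1 is needed for surfactant production and is abundant in endothelium, and splice forms of Hif3a include one that inhibits HIF activity.

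The deposited values are normalized counts, rounded to whole numbers, and all single-lung values below are on that scale. They summed to 19516482 and 19987634 in RykSL/SL lungs 1 and 2, and to 18743098 and 18658239 in wild-type lungs 1 and 2. Lung epithelial markers were present in every library, with a summed value over 10 genes of 253482 to 302024 in RykSL/SL and 342909 to 362273 in wild-type lungs, and none of them at 0. Among markers of other cells, 1 of 9 cardiac markers (Myl7) and 1 of 10 macrophage markers (Siglecf) fell, against 0.917% of all genes tested. Siglecf was low in every lung, at 3 and 2 in RykSL/SL and 36 and 30 in wild-type lungs. Both RykSL/SL lungs lay below both wild-type lungs in 7 of the 9 cardiac and 9 of the 10 macrophage markers. This was so for 26.9% of all genes tested. The cardiac sum was 4068 and 3449 in RykSL/SL and 6555 and 6834 in wild-type lungs, the macrophage sum was 2940 and 2786 in RykSL/SL and 4619 and 4111 in wild-type lungs, and their part in the results below was not tested. Ryk itself stood at 2757 and 2203 in RykSL/SL and at 2528 and 2525 in wild-type lungs (log2 fold change -0.04, limma adjusted p = 0.926). The short names in the labels call the RykSL/SL libraries KO, and since the effect of the allele on the transcript is not stated there, this level does not check the labels. RykSL/SL lung 1 stood apart in sex-linked genes, with 24836 for Xist, the RNA of the inactive X chromosome, against 9 in RykSL/SL lung 2 and 7 and 23 in wild-type lungs. None of the 10 genes lies on X or Y, but sex and genotype were not balanced. The log2 fold changes of the 10 genes are therefore also given without that lung. So are those of the other genes that passed, cell type markers aside. With 1 RykSL/SL lung left, that fit takes the spread between lungs from the wild-type pair alone. Passing there is not read as support. Over all genes tested, the log2 difference between the 2 RykSL/SL lungs had an SD of 0.6, against 0.314 between the 2 wild-type lungs.

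Of the 10 genes, Hif3a and Bnip3 rose in RykSL/SL lungs and 8 did not pass the test, with none lower among those that passed. The test was limma on log2(value + 1) over 18436 genes, with a call at a Benjamini-Hochberg adjusted p under 0.05 over all of them, and every adjusted p below comes from it. It called 2.39% of all genes tested, 1.47% as higher and 0.917% as lower. The median log2 fold change was 0.94 over the 10 genes and -0.02 over all genes tested. In 9 of the 10 both RykSL/SL lungs lay above both wild-type lungs, which was so for 25.7% of all genes tested, while 26.9% lay below in both and 52.6% were without overlap in either direction. The 10 genes were chosen with earlier results of these data known, so nothing particular to them is read from these comparisons. In bulk tissue a change in the number of cells that make a transcript and a change in its amount per cell cannot be told apart.

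**Figure D1:**
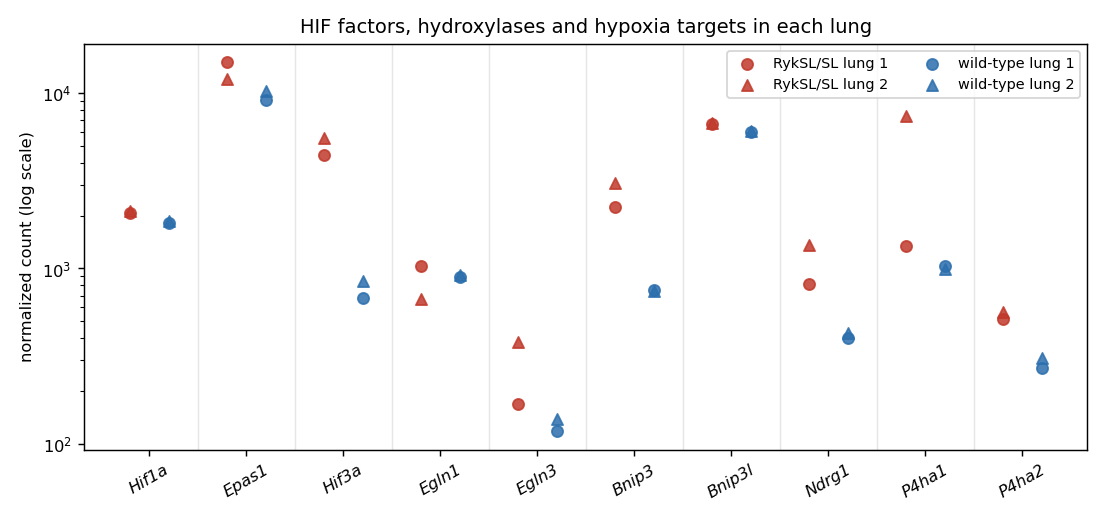
Normalized counts (log axis) of the 10 genes in each lung, with RykSL/SL lungs in red left of wild-type lungs in blue, circles for lung 1 and triangles for lung 2 of each genotype. Hif3a and Bnip3 are separated in both RykSL/SL lungs, P4ha1 stands at 7411 in RykSL/SL lung 2 alone, and Egln1 is the 1 gene whose groups overlap.

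Of the alpha subunits, Hif3a passed the test and Hif1a and Epas1 did not. Hif3a (ENSMUSG00000004328, chromosome 7, positions 17031507 to 17062427, minus strand, GRCm38) had normalized counts of 4454 and 5582 in RykSL/SL lungs, against 682 and 851 in wild-type lungs. Both RykSL/SL lungs were far above both wild-type lungs, and the gap between lungs of one genotype was small beside it, 0.33 on the log2 scale between RykSL/SL lungs and 0.32 between wild-type lungs. That is a log2 fold change of 2.71 (standard error 0.184), or 6.54-fold (adjusted p = 0.00597). By size of increase Hif3a ranked 55 of the 18436 genes tested, and by p it ranked 17. With RykSL/SL lung 1, the lung with high Xist, left out, the log2 fold change was 2.87. It was 2.55 without RykSL/SL lung 2 (adjusted p = 0.0966), 2.55 without wild-type lung 1 (0.771) and 2.87 without wild-type lung 2 (0.711), and in each of these 3 fits no gene of the table was called, against 5249, 917 and 1133 genes at an unadjusted p under 0.05. With no filter on low values the adjusted p was 0.222. Gene totals do not separate the splice forms of Hif3a.

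Hif1a, the widely expressed subunit, had 2085 and 2129 in RykSL/SL lungs and 1808 and 1854 in wild-type lungs. The groups did not overlap, but the log2 fold change of 0.20 (95% interval -0.11 to 0.52) did not pass (adjusted p = 0.432), and after quantile normalization it was 0.07. Epas1, which encodes HIF-2 alpha, had 14976 and 11976 in RykSL/SL lungs and 9142 and 10316 in wild-type lungs. Its log2 fold change of 0.46 (95% interval 0.01 to 0.92) did not pass either (adjusted p = 0.243). Both RykSL/SL lungs were above wild type, lung 1 more than lung 2. Of 10 endothelial markers none passed. Their summed value was 45389 and 30079 in RykSL/SL lungs, on either side of 37339 and 40773 in wild-type lungs, with none at 0, and RykSL/SL lung 1 was again the higher of its pair. The part of endothelial cell number in the Epas1 values was not tested. With RykSL/SL lung 1 left out, Hif1a stood at 0.22 (adjusted p = 0.111) and Epas1 at 0.30 (0.147).

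The subunits were also compared within each library. The log2 ratio of Hif3a to Hif1a, a ratio of values not corrected for length, was 1.09 and 1.39 in RykSL/SL lungs and -1.41 and -1.12 in wild-type lungs. That ratio does not depend on the scaling of a library. The log2 ratio of Epas1 to Hif1a was 2.84 and 2.49 in RykSL/SL lungs and 2.34 and 2.48 in wild-type lungs. The exact permutation test, two-sided, gave p = 0.333 for each, the smallest p that 2 lungs against 2 allow. On a scale per kilobase of exon, Hif3a averaged 748 in RykSL/SL lungs, above Hif1a at 357, and 114 in wild-type lungs, below Hif1a at 311 (normalized counts per kilobase, n = 2 each). Epas1 was the highest of the subunits per kilobase in both genotypes, at 2411 in RykSL/SL and 1740 in wild-type lungs.

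The upstream sequence of Hif3a is shown because this gene had the largest difference of the 10. It holds the 250 bases before the RefSeq start, chr7:17062428-17062677 on the minus strand of GRCm38.p6, with matches to ACGTG or GCGTG on either strand in capitals.
Hif3a: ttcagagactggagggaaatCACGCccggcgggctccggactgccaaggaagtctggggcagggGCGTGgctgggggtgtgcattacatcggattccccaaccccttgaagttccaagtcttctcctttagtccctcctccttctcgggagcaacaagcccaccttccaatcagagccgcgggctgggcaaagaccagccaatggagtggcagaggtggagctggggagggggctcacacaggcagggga
The window holds 2 matches, both to GCGTG, 1 on each strand, and ACGTG is not in it. Of the 32851 windows of the same length in the RefSeq table, 16.6% hold ACGTG, 28.2% hold GCGTG and 38.6% hold one or the other.

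**Figure D2:**
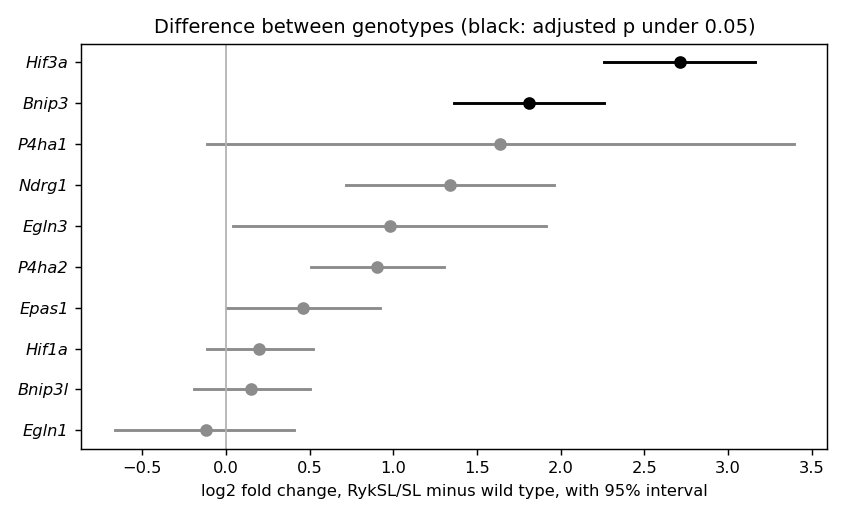
Log2 fold change of each of the 10 genes, RykSL/SL minus wild type, as points with 95% intervals from limma, in black where the adjusted p was under 0.05. Hif3a at 2.71 and Bnip3 at 1.81 are black, and the interval of P4ha1 runs from -0.11 to 3.39.

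The prolyl hydroxylases, which set the oxygen dependence of the alpha subunits, did not pass. Egln1 encodes PHD2, the main such enzyme in most tissues. It had 1029 and 673 in RykSL/SL lungs, on either side of 895 and 919 in wild-type lungs, and a log2 fold change of -0.12 (95% interval -0.66 to 0.41, adjusted p = 0.795). It was the 1 gene of the 10 whose groups overlapped. The log2 fold change was -0.43 without RykSL/SL lung 1 (adjusted p = 0.0568), and without RykSL/SL lung 2 the sign turned, to 0.18. Egln3 encodes PHD3 and is itself a hypoxia target. It had 168 and 379 in RykSL/SL lungs and 118 and 138 in wild-type lungs, which gave a log2 fold change of 0.98 (standard error 0.383, adjusted p = 0.233). Most of that difference lay in RykSL/SL lung 2, at 1.56 above the wild-type mean on the log2 scale, against 0.39 in RykSL/SL lung 1. The log2 fold change of Egln3 was 1.56 without RykSL/SL lung 1 and 0.39 without RykSL/SL lung 2. The log2 ratio of Egln3 to Egln1 was -2.61 and -0.83 in RykSL/SL lungs and -2.91 and -2.73 in wild-type lungs (exact permutation p = 0.333).

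Bnip3 and Bnip3l encode related outer-membrane proteins that mark mitochondria for removal by autophagy. Bnip3 passed the test and Bnip3l did not. Bnip3 (ENSMUSG00000078566, chromosome 7, positions 138890836 to 138909519, minus strand, GRCm38) had 2241 and 3076 in RykSL/SL lungs and 754 and 743 in wild-type lungs. Both RykSL/SL lungs were well above wild type, and lung 2 was the higher. This was a log2 fold change of 1.81 (standard error 0.184), or 3.5-fold (adjusted p = 0.0143). It was 2.04 without RykSL/SL lung 1. It was 1.58 without RykSL/SL lung 2 (adjusted p = 0.0937), 1.82 without wild-type lung 1 (0.795) and 1.80 without wild-type lung 2 (0.719), and without the mean-variance trend the adjusted p was 0.0541, and with no filter on low values it was 0.222.

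Bnip3l, also called Nix and needed for the clearing of mitochondria from maturing red cells, had 6640 and 6755 in RykSL/SL lungs and 5978 and 6077 in wild-type lungs. The groups did not overlap, but the log2 fold change of 0.15 (95% interval -0.19 to 0.50) did not pass (adjusted p = 0.594), nor did 0.16 without RykSL/SL lung 1 (0.15). It was 0.04 after quantile normalization and 0.07 with libraries scaled to equal sums. Of 12 erythroid markers none passed. Their summed value was 680245 and 813304 in RykSL/SL lungs and 732858 and 853354 in wild-type lungs, ranges that overlap, with none at 0. The log2 ratio of Bnip3 to Bnip3l was -1.57 and -1.13 in RykSL/SL lungs and -2.99 and -3.03 in wild-type lungs, a shift of 1.66 (exact permutation p = 0.333). Per kilobase of exon Bnip3l was above Bnip3 in both genotypes, at 1736 against 1174 in RykSL/SL lungs and at 1562 against 331 in wild-type lungs, counting reads that may come from copies of either gene.

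Both genes have near-identical copies elsewhere in the genome, and the sources used here do not say how reads that align to several places were counted. Cut into overlapping stretches of 50 bases, 47.2% of Bnip3 transcript sequence is found in another gene's transcripts, in either orientation. The largest sharer, AC160336.1, holds 33.9% of the stretches and Gm6532 holds 10.8%, and no value was listed under either identifier. The copy Gm16439 shares 13.5% and was listed at 671 and 948 in RykSL/SL lungs and at 233 and 210 in wild-type lungs, which is 28.3% to 30.9% of Bnip3 in every lung. Of the Bnip3l stretches, 20.8% are shared with its pseudogene Bnip3l-ps, which had 1833 and 1858 in RykSL/SL lungs and 1828 and 1816 in wild-type lungs. Exons of the opposite-strand gene Gm45507 overlap 504 exon bases of Bnip3, but that gene was listed at 1 and 2 in RykSL/SL and at 0 in both wild-type lungs. Gm45507 holds 15.9% of the Bnip3 stretches and lies at the same place, so the 47.2% does not come from copies elsewhere alone.

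The upstream sequence of Bnip3 is shown because it holds the most matches among the 7 of the 10 genes with a window in the RefSeq table. It covers chr7:138909507-138909756 on the minus strand of GRCm38.p6, with matches in capitals as before.
Bnip3: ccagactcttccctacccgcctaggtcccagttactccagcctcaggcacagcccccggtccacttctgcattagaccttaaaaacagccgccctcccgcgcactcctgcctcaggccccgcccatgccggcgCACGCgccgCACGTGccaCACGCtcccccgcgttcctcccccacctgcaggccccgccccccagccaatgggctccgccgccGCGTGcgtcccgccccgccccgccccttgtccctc
It holds 2 matches to ACGTG, which are the 2 strands of a single CACGTG at -108 to -103, counted in bases from the start, and 3 matches to GCGTG. The last 13 bases of the window lie within the first exon of Bnip3 in the GENCODE annotation. The window of Hif1a holds 3 matches, 2 of which are likewise the 2 strands of a single CACGTG, and those of Egln1 and Egln3 hold 2 and 1. The last 70 bases of the Egln1 window lie within an exon of Egln1 in the GENCODE annotation. Its ACGTG match, at -68 to -64, lies there. The RefSeq start of Hif1a, at 73907867, lies downstream of the start of the gene in the GENCODE annotation, at 73901375, so its window lies inside the annotated gene.

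**Figure D3:**
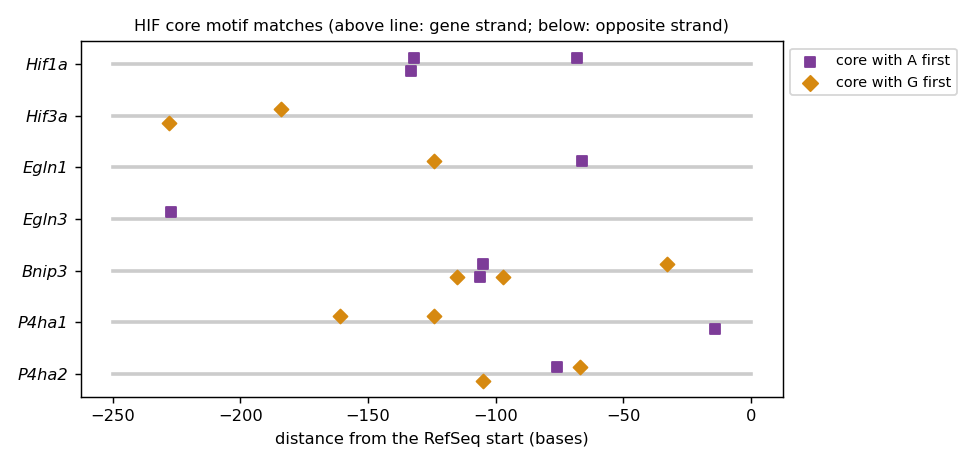
Positions of matches to the HIF core in the 250 bases before the RefSeq start of 7 genes, in bases from the start, as squares for the core that begins with A and diamonds for the core that begins with G, above the line on the gene's strand and below it on the opposite strand. Bnip3 has 5 matches, P4ha1, P4ha2 and Hif1a have 3 each, and Egln3 has 1, where the 2 strands of a single CACGTG count as 2 matches in Bnip3 and in Hif1a.

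P4ha1 and P4ha2 encode catalytic subunits of collagen prolyl 4-hydroxylase, which stabilises the collagen triple helix. P4ha1 had 1349 and 7411 in RykSL/SL lungs and 1036 and 992 in wild-type lungs. RykSL/SL lung 2 held almost all of the difference, at 2.87 above the wild-type mean on the log2 scale against 0.41 in RykSL/SL lung 1. The log2 fold change of 1.64 (standard error 0.717) did not pass (adjusted p = 0.272). It was 2.87 without RykSL/SL lung 1, and without RykSL/SL lung 2 it was 0.41. No 50-base stretch of P4ha1 transcripts was shared with another gene.

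P4ha2 had 514 and 566 in RykSL/SL lungs and 269 and 309 in wild-type lungs. Here both RykSL/SL lungs were alike and above both wild-type lungs, by 0.90 on the log2 scale (95% interval 0.51 to 1.30, adjusted p = 0.0534), just short of the threshold. It passed among genes with a mean of at least 50 (adjusted p = 0.0482). The log2 fold change was 0.97 without RykSL/SL lung 1 and 0.83 without RykSL/SL lung 2. Without wild-type lung 1 it was 0.80, and without wild-type lung 2 it was 1.00. The log2 ratio of P4ha2 to P4ha1 was -1.39 and -3.71 in RykSL/SL lungs, on either side of -1.94 and -1.68 in wild-type lungs (exact permutation p = 1).

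The upstream sequences of this pair are shown because the genes make the same kind of subunit and differed in how close the RykSL/SL lungs were to each other. They cover chr10:59323046-59323295 and chr11:54100674-54100923, both on the plus strand of GRCm38.p6, with matches in capitals as before.
P4ha1: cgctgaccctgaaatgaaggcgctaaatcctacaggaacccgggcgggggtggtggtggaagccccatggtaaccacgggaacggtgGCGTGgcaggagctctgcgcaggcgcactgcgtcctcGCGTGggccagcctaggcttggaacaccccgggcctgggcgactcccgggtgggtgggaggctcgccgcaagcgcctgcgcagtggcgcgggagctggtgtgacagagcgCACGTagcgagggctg
P4ha2: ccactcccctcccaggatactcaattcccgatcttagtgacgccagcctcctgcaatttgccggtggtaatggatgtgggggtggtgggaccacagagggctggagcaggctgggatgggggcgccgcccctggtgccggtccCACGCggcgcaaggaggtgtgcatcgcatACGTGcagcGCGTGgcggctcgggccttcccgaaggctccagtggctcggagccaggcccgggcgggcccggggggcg
Each window holds 1 match to ACGTG and 2 to GCGTG. In P4ha1 the ACGTG match lies at -16 to -12 on the opposite strand, and in P4ha2 at -78 to -74 on the gene's own strand. The RefSeq start of P4ha2 lies downstream of the start of the gene in GENCODE, at 54100095, so this window lies inside the annotated gene.

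Ndrg1, a stress-responsive protein of the NDRG family, had 815 and 1356 in RykSL/SL lungs and 399 and 431 in wild-type lungs. Both RykSL/SL lungs were above wild type, lung 2 more so. The log2 fold change was 1.34 (standard error 0.253, 95% interval 0.72 to 1.96, adjusted p = 0.0598) and did not pass. It was 1.71 without RykSL/SL lung 1 and 0.97 without RykSL/SL lung 2. Of the NDRG family, Ndrg2 rose, with 3072 and 2887 in RykSL/SL lungs and 1282 and 1378 in wild-type lungs (log2 fold change 1.16, adjusted p = 0.0193). Ndrg3 and Ndrg4 had log2 fold changes of -0.03 and 0.01 and did not pass.

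The RykSL/SL lungs were not equally far from wild type. Of the 10 genes, 9 were further from the wild-type mean in lung 2 than in lung 1, Epas1 being the exception. The median log2 difference from wild type over the 10 genes was 0.52 in lung 1 and 1.27 in lung 2, where over all genes tested it was 0 and -0.02. In lung 1 all 10 genes were above both wild-type lungs, and in lung 2 it was 9, Egln1 being below. Shares of all genes tested for these per-lung counts were not computed, and nothing particular to the 10 genes is read from them. Without lung 1, limma called 6 of the 10 genes, among 2385 in the whole table.

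**Figure D4:**
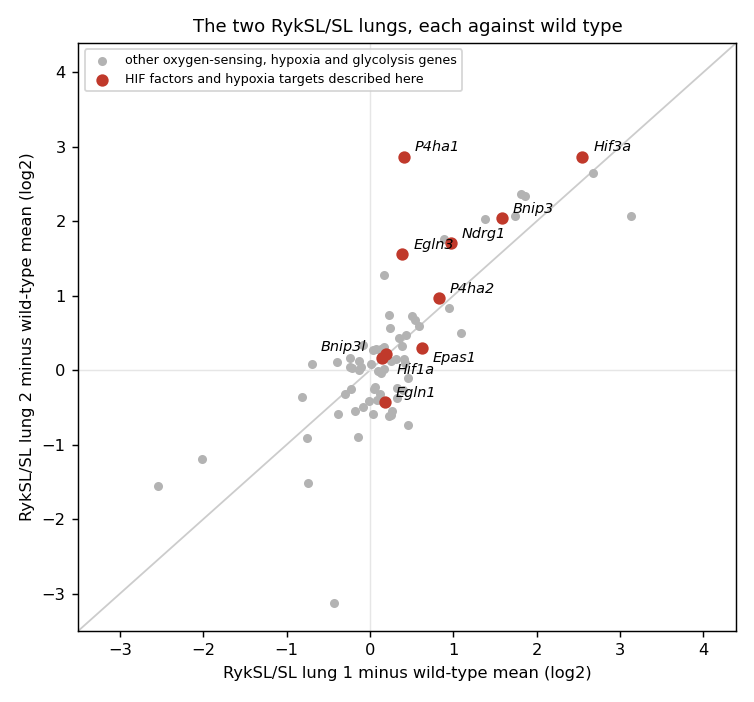
Log2 difference from the wild-type mean in RykSL/SL lung 1 (horizontal) and lung 2 (vertical), in red for the 10 genes and in grey for other oxygen-sensing, hypoxia and glycolysis genes, with the line of equality. Hif3a lies near the line at 2.55 and 2.87, while P4ha1 lies at 0.41 and 2.87.

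Per kilobase of exon, the wild-type order was Epas1 (1740 normalized counts per kilobase), Bnip3l (1562), Bnip3 (331), Hif1a (311), Egln1 (252), P4ha1 (247), Hif3a (114), Ndrg1 (62.9), Egln3 (48.1) and P4ha2 (46.3). Among neighbours in that order, Egln1 and P4ha1 overlapped between the 2 wild-type lungs, as did Egln3 and P4ha2, and the others did not. In RykSL/SL lungs the order began with Epas1 (2411), Bnip3l (1736) and Bnip3 (1174) and ended with Ndrg1 (165), Egln3 (103) and P4ha2 (86.6). P4ha1 spanned 328 to 1801 per kilobase there and so has no settled place in the order. Egln3 spanned 63.1 to 142 there, which overlapped P4ha2 at 82.4 to 90.7 and Ndrg1 at 124 to 206. In RykSL/SL lung 1 Egln3 was below P4ha2. Bnip3 and Bnip3l include sequence shared with copies, and the place of Bnip3 relative to Hif1a, Egln1 and P4ha1 in wild-type lungs is not settled either. For Epas1 and Ndrg1, the gene ends in GENCODE differ from those listed with the deposited values, so their values per kilobase are less certain.

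Of 15 other oxygen-sensing genes limma called none, against 2.39% of all genes tested, and the median log2 fold change was -0.03. An unadjusted p under 0.05 was found for 4 of the 15, and for 3703 of all 18436 genes tested. The 4 were the co-activator genes Ep300 (0.59, adjusted p = 0.0912) and Crebbp (0.61, 0.0984), the ARNT relative Arnt2 (-0.83, 0.098) and the hydroxylase gene Egln2 (0.40, 0.244). Without RykSL/SL lung 1, 4 genes of this list passed, 2 in each direction, in a fit that called 2385 of all 18436 genes.

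Of 35 further hypoxia targets, 34 were tested, 5 rose and 2 fell, and the median log2 fold change was 0.18. Of all genes tested, 1.47% were called as higher and 0.917% as lower. An unadjusted p under 0.05 was found for 16 of the 34, and for 3703 of all 18436 genes tested. Epo, the erythropoietin gene, was listed at 0 in all libraries. Those that rose were Ddit4, a TOR inhibitor gene that glucocorticoids also induce (2.67, adjusted p = 0.00439), Stc2, a secreted glycoprotein gene (2.10, 0.0367), Edn1, which encodes the vasoconstrictor endothelin-1 (2.09, 0.0329), the collagen and elastin crosslinking enzyme gene Lox (1.71, 0.031) and Pfkfb3, an activator of glycolysis (0.89, 0.036). Ddit4 had 2296 and 2255 in RykSL/SL lungs and 320 and 399 in wild-type lungs, so that its RykSL/SL lungs were level where those of P4ha1 and Egln3 were not. The 2 that fell were the glycogen-targeting subunit gene Ppp1r3c (-2.05, adjusted p = 0.0357) and the chemokine receptor gene Cxcr4 (-1.60, 0.0454). Ppp1r3c had 333 and 660 in RykSL/SL lungs and 1978 and 1913 in wild-type lungs. Without RykSL/SL lung 1 the log2 fold changes of Ppp1r3c and Cxcr4 were -1.56 and -1.19. Those of Ddit4, Lox and Pfkfb3 were then 2.65, 2.03 and 0.84. When RykSL/SL lung 1 was left out, Edn1 (log2 fold change 2.37, adjusted p = 0.0568) and Stc2 (2.34, 0.0512) no longer passed, and with libraries scaled to equal sums Pfkfb3 did not (0.0516).

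Of 19 glycolysis and glucose uptake genes, 1 rose, against 1.47% of all genes tested, and the median log2 fold change was -0.02. An unadjusted p under 0.05 was found for 3 of the 19, and for 3703 of all 18436 genes tested. The gene that rose was Hk2, a hexokinase (1.91, adjusted p = 0.0154). The glucose transporter gene Slc2a1 had 562 and 1026 in RykSL/SL lungs and 281 and 326 in wild-type lungs (1.32, adjusted p = 0.0857), while Aldoc (-1.13, 0.144) and Eno1 (-0.52, 0.316) had negative values. Aldoc and Eno1 encode the glycolytic enzymes aldolase C and enolase 1. None of these 3 passed.

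Of the 14 collagen hydroxylation genes, which include P4ha1 and P4ha2, none passed, and the median was -0.12. An unadjusted p under 0.05 was found for 5 of the 14, and for 3703 of all 18436 genes tested. Crtap (-0.76, adjusted p = 0.106), P3h4 (-0.62, 0.103) and P3h3 (-0.47, 0.158) had negative log2 fold changes. P4ha1 and P4ha2 had positive ones, that of P4ha1 mostly from RykSL/SL lung 2. In the same list P4ha3 stood at -0.46 (adjusted p = 0.397), P3h1 at -0.13 (0.712), Ppib at -0.10 (0.739) and P3h2 at 0.06 (0.945). Among 10 fibroblast markers, Pdgfra passed as higher and the median was -0.49, with a summed value of 172837 and 130614 in RykSL/SL lungs and 119626 and 123629 in wild-type lungs, and none at 0. The part of fibroblast number in the P4ha1 and P4ha2 values was not tested.

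Of 16 mitophagy genes, which include Bnip3 and Bnip3l, 2 rose, against 1.47% of all genes tested, and the median was 0.18. Besides Bnip3 this was Gabarapl1, an autophagosome protein gene, with 1969 and 2196 in RykSL/SL lungs and 1211 and 1199 in wild-type lungs (0.79, adjusted p = 0.0491), a call lost with quantile normalization (0.0706) and with equal library sums (0.0633). The autophagy receptor gene Sqstm1 (0.60, adjusted p = 0.103) and the autophagosome gene Map1lc3b (0.44, 0.169) did not pass. An unadjusted p under 0.05 was found for 6 of the 16, and for 3703 of all 18436 genes tested. The median of these lists stands against -0.02 over all genes tested, and nothing particular to a list is read from it. Without RykSL/SL lung 1 the log2 fold changes of Hk2, Gabarapl1 and Ndrg2 were 2.07, 0.87 and 1.12.

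**Figure D5:**
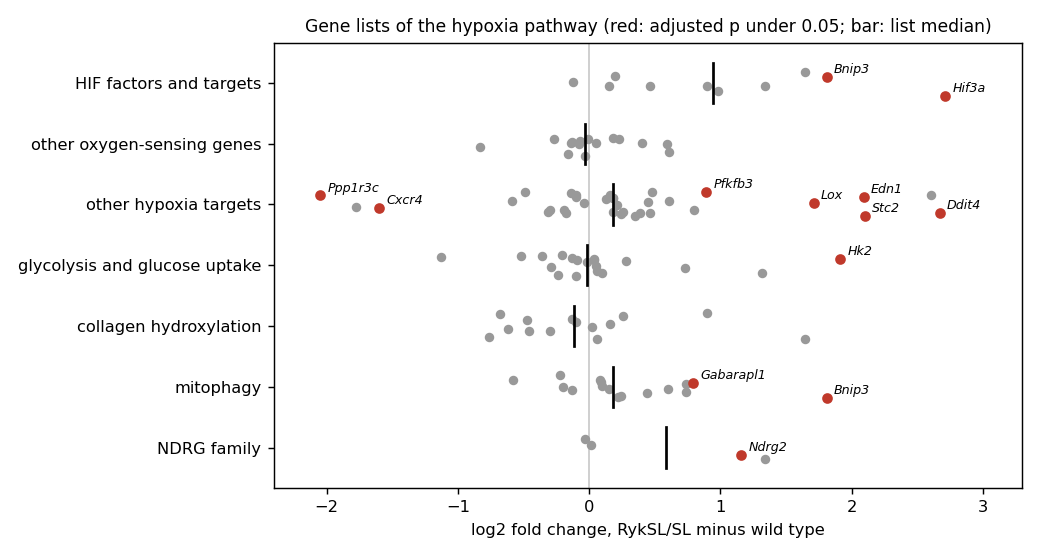
Log2 fold change, RykSL/SL minus wild type, of every tested gene of the 7 lists, with genes at an adjusted p under 0.05 in red and named, others in grey, and the list median as a black bar. The median is 0.94 for the HIF factors and targets, -0.03 for the other oxygen-sensing genes and 0.18 for the other hypoxia targets.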

How the data were processed

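Left lung lobes of 2 RykSL/SL and 2 wild-type mice were profiled with a stranded mRNA library kit (total RNA input 3 µg), per the labels' protocols, which describe the lungs as those of separate mice. Per the submitters' processing notes, the tools were FastQC, STAR 2.4.0a, featureCounts 1.5.1 of Subread and DESeq2 1.14.1, with builds mm10 and GRCm38. How strand, scaling and multiply aligned reads were handled was not given there or in the labels.

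The values the authors deposited are treated here as a score: normalized counts rounded to whole numbers. The spacing of low values fitted scaling factors of 0.855, 1.172, 0.986 and 0.994 (RykSL/SL lungs 1 and 2, wild-type lungs 1 and 2). Rounding keeps exact counts from being recovered, so no count model was run. Counting error is small for the 10 genes, whose lowest value was 118.

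Genes with a mean of at least 10 were tested with limma 3.58.1 in R 4.3.3 (eBayes with trend, two-sided). Log2 fold changes are RykSL/SL minus wild type; the pseudocount of 1 shrinks those of low genes. Other steps used matplotlib 3.10.9, scipy 1.17.1, numpy 2.4.6 and pandas 2.3.3 under Python 3.11.15. The fit was checked on simulated data. The members and lists were chosen with earlier results of these data known. All 10 members are given, and of each other list every gene called and up to 4 with the smallest p. P4ha3, P3h1, P3h2 and Ppib were added after their values were seen. Exon lengths and 50-base sequences came from GENCODE M21 (GRCm38), which held all 10 identifiers, and upstream sequences from RefSeq (GRCm38.p6), which gave windows for 7. Alternatives covered the pseudocount, the filter, scaling, the trend, a replicate block and leaving out each lung.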

Additional observations from a re-analysis of the deposited data

How the results depend on the processing

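Calls among the 10 genes rested on single lungs and on the variance model, while directions were steadier. Leaving out 1 lung at a time gave 0 to 6 of the 10 genes called, 0 to 2385 in the whole table, 0 to 4 oxygen-sensing genes, 0 to 7 further hypoxia targets, 0 to 4 glycolysis genes, 0 to 4 collagen hydroxylation genes, 0 to 5 mitophagy genes and 0 to 2 NDRG genes. A fit that leaves 1 lung in a genotype assumes that it varies like the other genotype. With no filter on low values (31939 genes), 0 genes were called in the whole table (4876 at an unadjusted p under 0.05), and so 0 of the 10 (4 at an unadjusted p under 0.05), 0 further hypoxia targets, 0 glycolysis, 0 mitophagy and 0 NDRG genes. Without the mean-variance trend, 72 genes were called in all, with 1 of the 10 (Hif3a), 1 further hypoxia target, and 0 glycolysis, 0 mitophagy and 0 NDRG genes. A minimum mean of 50 added P4ha2, for 3 of the 10 genes and 1 collagen hydroxylation gene. Mitophagy calls numbered 1 with quantile normalization and 1 with equal library sums. The cause of these changes was not tested.

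The genotypes share replicate numbers, which the labels do not tie to a litter or day, and deviations of same-numbered lungs from their genotype means correlated at -0.058 over genes. With the replicate block 766 genes were called, with 4 of the 10 (Hif3a, Bnip3, Ndrg1 and P4ha2), 2 glycolysis, 1 collagen hydroxylation, 1 mitophagy and 2 NDRG genes.

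Without RykSL/SL lung 2 the Egln1 log2 fold change turned to 0.18, against -0.43 without RykSL/SL lung 1, and the shift of the P4ha2 to P4ha1 ratio turned to 0.42 against -0.74 over all lungs. Leave-one-out shifts of that ratio ran from -1.90 to 0.42. The other 9 genes kept a positive log2 fold change in every setting run. Hif3a ran from 2.55 to 2.87 and Bnip3 from 1.58 to 2.04. With 2 lungs of each genotype, differences near the spread of Egln3 or P4ha1 were not detectable as calls.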

Other observations

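P4ha1 differed between the RykSL/SL lungs by 2.46 on the log2 scale. Of the 18436 genes tested, 67 differed between these lungs by at least as much, and of the 4300 with a mean of at least 1000 it was 6. The 7 other tested genes within 500 kilobases of P4ha1 on chromosome 10 showed smaller gaps. On one side, Mcu, a mitochondrial calcium channel gene, had 546 and 491 in RykSL/SL lungs and 428 and 474 in wild-type lungs, and on the other side the septin gene Sept10 had 733 and 586 in RykSL/SL lungs and 761 and 735 in wild-type lungs.

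P4ha1 was 1 of 16 genes with a mean of at least 200 that stood in RykSL/SL lung 2 at 4 times or more their value in every other lung. RykSL/SL lung 1 had 1 such gene, the sex-linked Xist, and each wild-type lung had 0. The 16 genes were picked out after their values were seen. They included Pmvk, an enzyme gene of cholesterol synthesis, with 1800 and 14540 in RykSL/SL lungs and 550 and 582 in wild-type lungs, and Gclc, which encodes the rate-limiting enzyme of glutathione synthesis, with 1647 and 10212 in RykSL/SL lungs and 1778 and 1350 in wild-type lungs. The nuclear receptor gene Nr4a1, an immediate early gene, had 327 and 2613 in RykSL/SL lungs and 428 and 404 in wild-type lungs.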
